A study of Mus musculus with 12 samples.

Results

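The Schlafen (Slfn) genes were followed in B16, an established mouse melanoma cell line, with and without Adar and with and without interferon-beta (IFNb). The members were the rows of the deposited count table with the symbols Slfn1, Slfn2, Slfn3, Slfn4, Slfn5, Slfn8 and Slfn9, which are 7 of its 23336 gene symbols. They were chosen by family name, with earlier results of these data known. The RNA-seq data comprised 12 libraries in 4 groups of 3. Control cells had received Cas9 with Non-targeting sgRNA 5, and Adar KO cells (called Adar-null below) had received Cas9 with Adar sgRNA 1, both from plasmids introduced transiently, before subcloning. Cells of each genotype then received either vehicle, which was saline with albumin, or 1000 U of IFNb per mL for 36 h. Each genotype thus stands for a single guide and the cells derived from it, so genotype and subcloned population cannot be told apart. The labels do not say whether the libraries of a group came from different cultures, so p-values measure the spread between libraries only, which may be technical.

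Schlafen proteins were first described in developing T cells, and their genes form a cluster on mouse chromosome 11. They fall into short forms (Slfn1 and Slfn2), intermediate forms (Slfn3 and Slfn4) and long forms that carry a helicase-like C-terminal domain (Slfn5, Slfn8 and Slfn9). Type I interferon raises several of them in immune and other cells through JAK-STAT signalling, and family members have been linked to tRNA binding or cleavage, restriction of viral protein synthesis and control of cell quiescence. The Adar product is an enzyme that converts adenosine to inosine in double-stranded RNA.

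The upstream sequences of 4 interferon-responsive members are shown first, because they differ in whether they hold an interferon-stimulated response element (ISRE) core. That core was searched as GAAANNGAA on both strands in the RefSeq promoter windows of GRCm38.p6, which reach from 250 bases before to 50 bases after each start. Only bases before the start that overlap no annotated exon of the gene are printed, 5′ to 3′ in the direction of transcription, and capitals mark each match. The stretches are chr11:83020811-83021060 (minus strand) for Slfn8, chr11:82991831-82992080 (minus strand) for Slfn9, chr11:82951852-82951984 (plus strand) for Slfn5 and chr11:83064862-83065111 (plus strand) for Slfn2. The RefSeq start used for Slfn5 lies inside the Slfn5 gene of GENCODE M21, which begins further upstream at 82951349, so this stretch is within that gene but outside its exons.
Slfn8: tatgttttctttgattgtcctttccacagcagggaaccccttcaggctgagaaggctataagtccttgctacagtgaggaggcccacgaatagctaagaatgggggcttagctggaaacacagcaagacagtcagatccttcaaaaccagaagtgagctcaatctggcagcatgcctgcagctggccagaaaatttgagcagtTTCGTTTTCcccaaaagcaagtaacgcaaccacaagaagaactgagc
Slfn9: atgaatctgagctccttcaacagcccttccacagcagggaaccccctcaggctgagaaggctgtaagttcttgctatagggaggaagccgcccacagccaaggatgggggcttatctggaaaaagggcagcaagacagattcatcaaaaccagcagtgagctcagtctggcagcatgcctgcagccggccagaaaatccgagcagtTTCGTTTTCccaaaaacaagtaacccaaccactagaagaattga
Slfn5: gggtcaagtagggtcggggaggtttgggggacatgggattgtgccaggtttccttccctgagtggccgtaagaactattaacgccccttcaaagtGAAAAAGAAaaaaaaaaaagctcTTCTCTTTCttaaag
Slfn2: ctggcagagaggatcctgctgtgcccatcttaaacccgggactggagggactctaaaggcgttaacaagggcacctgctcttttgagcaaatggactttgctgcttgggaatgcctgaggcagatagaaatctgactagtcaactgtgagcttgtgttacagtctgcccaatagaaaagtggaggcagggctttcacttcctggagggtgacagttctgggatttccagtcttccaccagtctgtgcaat

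The Slfn8 and Slfn9 windows held the same match, GAAAACGAA, on the strand opposite to the gene, with its first base 47 and 44 bases before the start, respectively. RefSeq gives a second start for Slfn8, for which the match lies 135 bases before it. Aligned over the whole windows at these starts, Slfn8 and Slfn9 were identical at 248 of 292 aligned bases (84.9%). Slfn5 held 2 matches, GAAAAAGAA at 155 bases and GAAAGAGAA on the opposite strand at 132 bases before its start. No match was found in the windows of Slfn1, Slfn2, Slfn3 or Slfn4. A match to this core was present in 2812 of 32851 RefSeq promoter windows of that length (8.56%). The core of the gamma-activated site, searched as TTCNNNGAA, which reads the same on both strands, occurred in 2726 windows (8.30%) and in none of the 7 members. A match describes letters in the window and was not tested as a binding site.

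In GENCODE M21 (GRCm38), all 7 members are protein-coding genes on chromosome 11. From one end of the cluster to the other they are Slfn5 (82951349 to 82964840, plus strand), Slfn9 (82978390 to 82991830, minus strand), Slfn8 (83002158 to 83020810, minus strand), Slfn2 (83065112 to 83070678, plus strand), Slfn1 (83116849 to 83122670, plus strand), Slfn4 (83175186 to 83190216, plus strand) and Slfn3 (83191330 to 83215154, plus strand). The pseudogene Slfn10-ps lies between Slfn8 and Slfn2, at 83028130 to 83040042 on the minus strand. The values below are counts per gene symbol, so they do not separate transcripts of a gene.

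Total counts per library lay between 5375649 and 7153480, and Rn45s, the ribosomal RNA precursor, took 21.1% to 28.5% of them. Chi-square per degree of freedom between replicates was 1.47 to 3.23, above sampling noise for each pair. Adar stood at 72.2 ± 2.05 CPM in control cells with vehicle, 384 ± 7.47 in control cells with IFNb, 59.5 ± 5.26 in Adar-null cells given vehicle and 408 ± 21.2 in Adar-null cells given IFNb (CPM, library-size normalised counts after TMM scaling; mean ± SD, n = 3). A gene-level count does not show whether the coding frame is intact, so it does not check the deletion. The 8 melanocyte markers searched were each detected in every group. Summed, they lay at 16212 to 17082 CPM in control cells with vehicle, 13987 to 14318 with IFNb, 15817 to 16014 in Adar-null cells with vehicle and 10629 to 11362 with IFNb. Of 14 leukocyte markers, 13 had a row, and their summed level was 2.17 to 2.80, 2.67 to 5.58, 2.21 to 2.85 and 3.32 to 4.73 CPM in the same order of groups. Cd3e, Ms4a1 and Nkg7 were at 0 in each of the 12 libraries, and Ptprc had 1 count in all. Cd68 held 147 counts, the most of the leukocyte list. In bulk RNA, fewer expressing cells and less RNA per cell cannot be told apart.

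**Figure D1:**
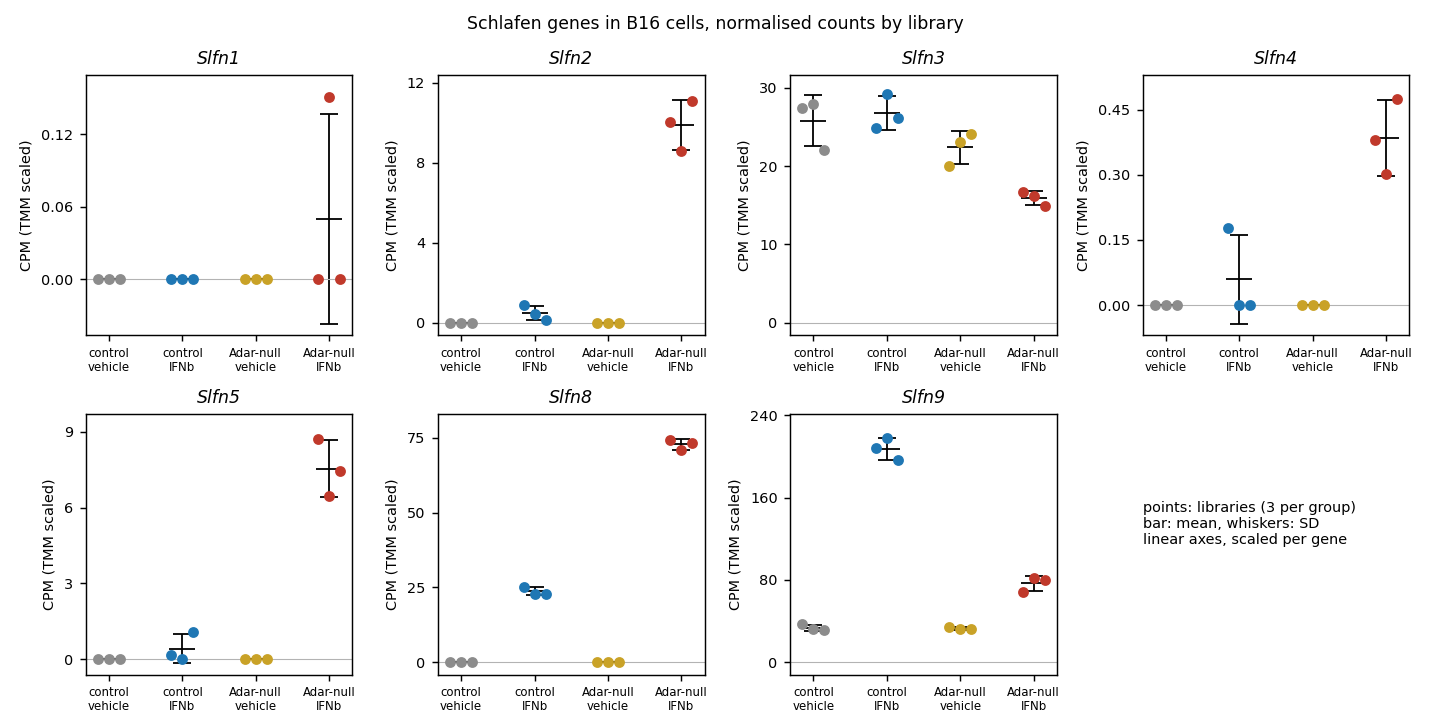
Level of each Schlafen gene in every library, as CPM after TMM scaling on a linear axis scaled per gene; points are libraries, bars the mean and whiskers the SD of 3 libraries per group. Slfn8 rises from 0 in all vehicle libraries, Slfn9 is highest in control cells with IFNb at 207.5 CPM on average, and Slfn3 is lowest in Adar-null cells with IFNb.

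Without interferon, only Slfn3 and Slfn9 were detected. Slfn3, an intermediate form studied in T cells and gut epithelium, had 156, 169 and 122 counts in the control libraries and 117, 167 and 135 in the Adar-null libraries. Slfn9, a long form, had 209, 196 and 171 counts in control and 198, 232 and 180 in Adar-null cells. The genotypes overlapped in both genes. The other 5 members had 0 counts in all 6 vehicle libraries. A total of 3 counts over a group, taken as the limit that a count of 0 allows, corresponds in the vehicle groups to 0.173 CPM for control cells and 0.161 CPM for Adar-null cells. These limits and all counting intervals cover counting error only.

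Per exon length, Slfn3 was the more abundant of the pair without interferon. Its level was 14.2 ± 1.79 CPM per kb in control and 12.3 ± 1.15 in Adar-null cells, against 5.66 ± 0.517 and 5.55 ± 0.183 CPM per kb for Slfn9 (mean ± SD, n = 3). Slfn3 made up 71.4% ± 2.0 of the summed family level per kb in control and 68.8% ± 2.76 in Adar-null cells. Lengths were the union of exons in the basic annotation, 1816 bases for Slfn3 and 5885 for Slfn9. With the exons of all annotated transcripts, Slfn3 has 3411 bases. Its level in control cells then becomes 7.56 ± 0.952 CPM per kb, beside 5.58 ± 0.510 for Slfn9. The share of Slfn3 would be lower with that length. Shares, here and below, use the basic annotation only.

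Between genotypes under vehicle, no Schlafen gene was called by the edgeR quasi-likelihood test (called: Benjamini-Hochberg adjusted p under 0.05 over the 11561 genes tested). The background is 6.51% of tested genes called in this comparison, 2.47% higher and 4.05% lower. The log2 fold change of Adar-null against control cells was -0.20 ± 0.11 for Slfn3 (edgeR adjusted p = 0.307) and -0.03 ± 0.09 for Slfn9 (adjusted p = 0.916), where ± gives the standard error of the fit. Neither gene had an unadjusted p under 0.05 by edgeR, and neither was called by DESeq2 or limma-voom. With counts of 0 under vehicle in both genotypes, Slfn2, Slfn5 and Slfn8 could not be called here. They passed the low-count filter through their interferon-treated groups. For Slfn2 and Slfn5 this was the Adar-null treated group only, since their control treated libraries held few counts. Slfn1 and Slfn4 did not pass the filter.

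In control cells, IFNb was followed by higher counts of 4 of the 5 tested members, with Slfn9 holding most of them. Slfn9 rose from 209, 196 and 171 counts to 1168, 1526 and 1267, or from 33.3 ± 3.04 to 207.5 ± 10.9 CPM, which is 6.24-fold. Slfn8, the long form next to Slfn9 in the cluster, rose from 0 counts in each library to 142, 160 and 148. That is at least 136-fold, taken against the limit of 3 counts in the vehicle group. The treated counts enter such bounds as observed, without counting error. The treated and untreated libraries did not overlap in either gene. How many of all tested genes separate in this way was not counted, here or in the comparisons below.

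Slfn2, a short form known for a role in T cell quiescence and tRNA protection, rose from 0 to 5, 3 and 1 counts in control cells. That is 2.72-fold against the limit of 3 counts in the vehicle group. The pooled counting interval of Slfn2 was 0.216 to 0.896 CPM with IFNb, just above that with vehicle, 0 to 0.213 CPM. Without control IFNb replicate 1, which held 5 of the 9 counts, the fitted log2 fold change of Slfn2 was 3.97 in place of 4.59 (edgeR adjusted p = 0.0356); both fitted fold changes depend on the prior count. Slfn5, a long form induced by interferon in several cell types, went from 0 to 1, 0 and 7 counts, 2.42-fold against the same limit. The pooled counting interval of Slfn5 was 0.181 to 0.827 CPM with IFNb, which overlaps that with vehicle, 0 to 0.213 CPM. The third Slfn5 library held 7 of the 8 counts, and the groups overlapped at 0. Slfn5 was called in the main edgeR test (adjusted p = 0.0120). Without control IFNb replicate 3 its adjusted p was 0.323, with DESeq2 0.124 and with limma-voom 0.0872, so its rise in control cells rests on that library. Over the alternatives tried, that adjusted p ran from 0.00222 to 0.323.

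The log2 fold change of Slfn9 was 2.64 ± 0.07 (edgeR adjusted p = 3.18e-66), and the adjusted p-values of Slfn8 and Slfn2 were 2.97e-42 and 0.00470. Of all tested genes 26.5% were called higher, 26.5% lower and 53.0% in either direction. The 4 of 5 tested members called higher are not read against that share, since Slfn2, Slfn5 and Slfn8 entered the test through their treated groups. Without the filter, 4 of all 7 members were called higher. That split of all genes, 50.01% of calls higher, became 39.4% when libraries were scaled by their size alone. Slfn3 had 140, 204 and 169 counts with IFNb and was not called, with a log2 fold change of 0.06 ± 0.11 (edgeR adjusted p = 0.679). Its treated libraries, at 24.9 to 29.2 CPM, overlapped the untreated ones, at 22.0 to 27.9 CPM. The sign of this small difference turned with library size scaling, at -0.02. Slfn4, an intermediate form known from myeloid cells, had 1, 0 and 0 counts, and Slfn1 had none.

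In Adar-null cells, IFNb was followed by higher counts of 4 tested members and lower counts of Slfn3. Slfn8 rose from 0 to 393, 472 and 463 counts, at least 453-fold. Slfn2 rose from 0 to 53, 57 and 70 counts, at least 61.4-fold, and Slfn5 from 0 to 46, 43 and 47, at least 46.4-fold. All 3 genes were above 0 in every treated library and at 0 in every untreated one.

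Slfn9 rose in Adar-null cells from 198, 232 and 180 counts to 362, 546 and 505, or from 32.7 ± 1.08 to 76.8 ± 7.26 CPM, which is 2.37-fold. Slfn3 was the one member that fell. Its 88, 108 and 94 counts corresponded to 15.9 ± 0.937 CPM, against 22.4 ± 2.09 CPM with vehicle. In these treated cells, each library lay below each of the other 9 libraries for Slfn3, at 14.9 to 16.7 CPM. Slfn4 had 2, 2 and 3 counts with IFNb and 0 with vehicle, 2.39-fold against the limit of 3 counts. Its pooled counting interval was 0.154 to 0.790 CPM with IFNb, which overlaps that with vehicle, 0 to 0.197 CPM. Slfn1 had a single count, in replicate 2 with IFNb.

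By edgeR, the adjusted p in Adar-null cells was 1.08e-63 for Slfn8, 5.46e-25 for Slfn2 and 9.22e-19 for Slfn5. Slfn9 had a log2 fold change of 1.24 ± 0.08 (adjusted p = 2.54e-30) and Slfn3 of -0.50 ± 0.12 (adjusted p = 0.000169). All 5 tested members were thus called, 4 higher and 1 lower, where 72.3% of all tested genes were called, 36.6% higher and 35.7% lower. These calls are not read against that share, since Slfn2, Slfn5 and Slfn8 passed the filter through their treated groups. Slfn4 was outside the filtered test. Without the filter its edgeR adjusted p in this comparison was 0.0225, which made 6 members called.

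**Figure D2:**
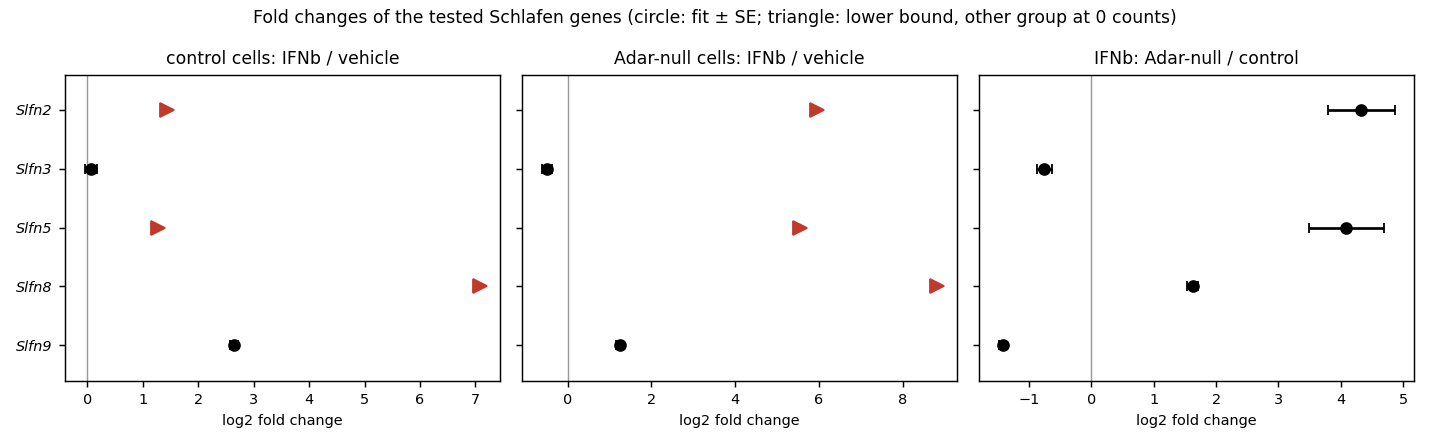
Log2 fold changes of the 5 tested Schlafen genes in 3 comparisons. Circles are fitted values with their standard error. Triangles are lower bounds where the vehicle group had 0 counts, taken without counting error of the treated group. Under IFNb, Slfn2, Slfn5 and Slfn8 lie to the right of 0 and Slfn3 and Slfn9 to the left for Adar-null against control cells.

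Under IFNb the genotypes differed in all 5 tested members, 3 higher and 2 lower in Adar-null cells. In this comparison 72.6% of all tested genes were called, 36.4% higher and 36.2% lower. The calls of the members are not read against that share. Slfn2 and Slfn5 passed the filter only through the Adar-null treated group, where they are high. Slfn2 went from 0.491 ± 0.372 CPM in control to 9.89 ± 1.26 in Adar-null cells, 20.9-fold higher. Slfn5 went from 0.421 ± 0.582 to 7.54 ± 1.13 CPM, 17.8-fold higher with a 95% counting interval of 8.76 to 42.0. Slfn8 went from 23.7 ± 1.37 to 72.9 ± 1.77 CPM, 3.08-fold higher. In each of these genes the lowest Adar-null library lay above the highest control library. Such separation was not counted over all tested genes, of which 72.6% were called here.

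The opposite direction was measured for Slfn9 and Slfn3. Slfn9 stood at 208, 218 and 196 CPM in the control libraries and at 68.6, 82.1 and 79.9 CPM in the Adar-null libraries, 2.68-fold lower. Slfn3 was at 26.8 ± 2.18 CPM in control and 15.9 ± 0.937 in Adar-null cells, 1.69-fold lower. The groups did not overlap in either gene, which again was not counted over all tested genes.

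The log2 fold changes between genotypes under IFNb were 4.33 ± 0.54 for Slfn2 (edgeR adjusted p = 5.13e-21), 4.09 ± 0.60 for Slfn5 (2.15e-15) and 1.62 ± 0.09 for Slfn8 (1.76e-33). They were -1.43 ± 0.06 for Slfn9 (adjusted p = 6.92e-47) and -0.76 ± 0.12 for Slfn3 (7.85e-09). The sizes for Slfn2 and Slfn5 rest on few control counts, 9 (95% counting interval 4.12 to 17.1) and 8 (3.45 to 15.8) over 3 libraries. Without control IFNb replicate 1 the Slfn2 value was 4.96. For Slfn5 it was 6.23 without control IFNb replicate 3 and 3.44 without control IFNb replicate 2. Slfn4 had 7 counts against 1, a ratio of 7.31 with a counting interval of 0.939 to 329, and its unfiltered edgeR adjusted p was 0.112.

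The interaction, the response to IFNb in Adar-null cells minus that in control cells, was called for Slfn9 and Slfn3, both lower. For Slfn9 it was -1.40 ± 0.11 on the log2 scale (edgeR adjusted p = 6.58e-23), for responses of 1.24 and 2.64. For Slfn3 it was -0.55 ± 0.16 (adjusted p = 0.00216), for responses of -0.50 and 0.06. Among all tested genes 59.3% were called for the interaction, 28.6% higher and 30.7% lower. For Slfn2, Slfn5 and Slfn8 no difference of fold responses could be estimated, because both vehicle groups were at 0 (edgeR adjusted p = 0.999816 for each). The values under IFNb are their comparison. The comparisons share groups of libraries, so the same libraries enter several of these values.

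**Figure D3:**
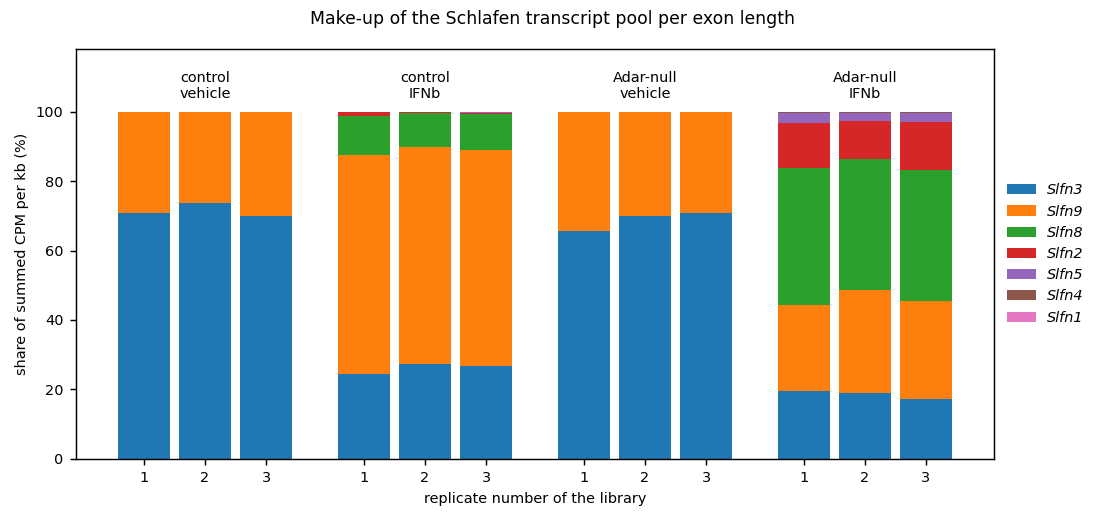
Share of each Schlafen gene in the summed family level per exon length (CPM per kb), in percent, for each library, with replicate numbers on the x axis. Lengths are those of the basic annotation. Slfn3 is the largest part in all vehicle libraries, Slfn9 in control cells with IFNb (62.6% on average) and Slfn8 in Adar-null cells with IFNb (38.4% on average).

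The make-up of the family therefore differed between the treated genotypes. Per exon length, the order in control cells with IFNb was Slfn9 at 35.3 ± 1.86, Slfn3 at 14.7 ± 1.20, Slfn8 at 5.91 ± 0.341, Slfn2 at 0.295 ± 0.223 and Slfn5 at 0.0698 ± 0.0964 CPM per kb (mean ± SD, n = 3). Slfn2 and Slfn5 lay within their spread of each other there. In Adar-null cells with IFNb the order was Slfn8 at 18.2 ± 0.440, Slfn9 at 13.1 ± 1.23, Slfn3 at 8.77 ± 0.516, Slfn2 at 5.95 ± 0.757, Slfn5 at 1.25 ± 0.187 and Slfn4 at 0.0970 ± 0.0220 CPM per kb. These neighbours were further apart than their SDs. With the exons of all transcripts, Slfn3 fell to 4.67 ± 0.275 CPM per kb in these cells and so to a place below Slfn2.

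As shares of the summed level per kb, Slfn9 held 62.6% ± 0.551, Slfn3 26.2% ± 1.44 and Slfn8 10.5% ± 0.811 in control cells with IFNb. In Adar-null cells with IFNb, Slfn8 held 38.4% ± 0.981, Slfn9 27.6% ± 2.51, Slfn3 18.5% ± 1.32, Slfn2 12.6% ± 1.47 and Slfn5 2.64% ± 0.402. The summed level of the 7 genes, not divided by length, was 59.1 ± 5.69 CPM in control cells with vehicle and 258.9 ± 12 with IFNb. In Adar-null cells it was 55.1 ± 1.10 with vehicle and 183.5 ± 4.25 with IFNb. The summed level was lower in treated Adar-null than in treated control cells, and Slfn9 and Slfn3 were the members that were lower.

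Slfn8 and Slfn9, neighbours in the cluster, moved in opposite directions between the treated genotypes. The ratio of Slfn8 to Slfn9 counts was 0.114 ± 0.00862 in control cells with IFNb, between 0.105 and 0.122 over the libraries. In Adar-null cells with IFNb it was 0.956 ± 0.116, between 0.864 and 1.09. Their upstream windows, printed above, are alike in sequence and hold the same ISRE core. When the counts of both genes were added up as 1 row, an alternative chosen after seeing the data, Adar-null cells were lower under IFNb by a log2 fold change of -0.62 (edgeR adjusted p = 2.54e-23).

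**Figure D4:**
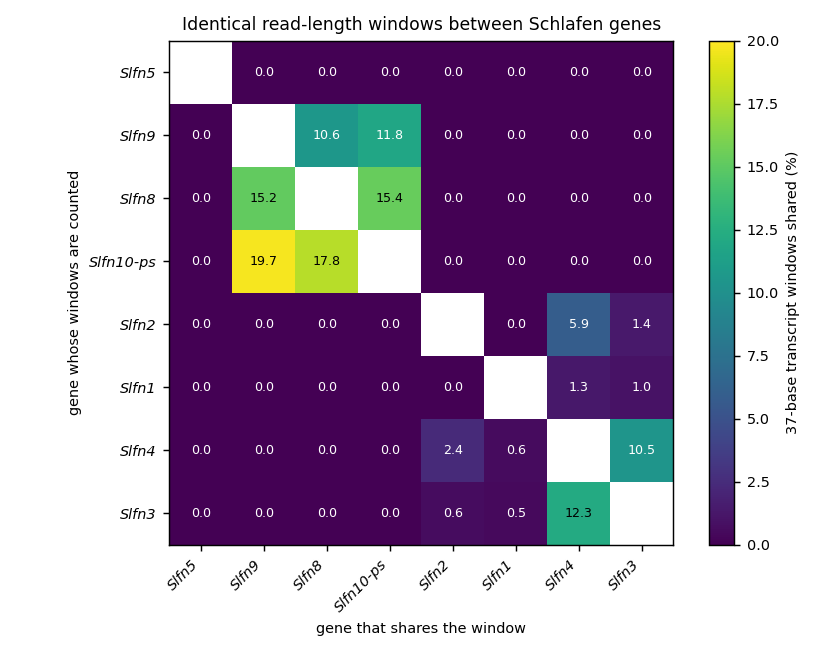
Share of the 37-base windows of each Schlafen gene (rows) that occur letter for letter in transcripts of another Schlafen gene (columns), in percent, from GENCODE M21. Blocks of shared sequence stand out, Slfn8 with Slfn9 and Slfn10-ps, and Slfn3 with Slfn4.

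Paralogous sequence limits how far members can be told apart, since the reads were 37 bases long at each end and the treatment of reads with several matches is not given in the sources used here. Of all 37-base windows in Slfn8 transcripts, 15.2% also occurred in Slfn9, and 10.6% of Slfn9 windows occurred in Slfn8. Slfn3 shared 12.3% of its windows with Slfn4, and Slfn4 10.5% with Slfn3. Slfn2 shared 5.90% with Slfn4, and Slfn5 none with another Schlafen gene. Counted against any other gene, the shares were 25.3% for Slfn3, 21.9% for Slfn8, 19.0% for Slfn9 and 17.7% for Slfn4. They were 12.4% for Slfn5, 7.86% for Slfn2 and 1.31% for Slfn1. Reads from the shared stretches are uncertain. In the 6 vehicle libraries, 171 to 232 counts were given to Slfn9 in each and 0 to Slfn8. In the same libraries, 117 to 169 counts were given to Slfn3 and 0 to Slfn4.

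A further 3 rows of the table had symbols that start with Slfn. Slfn10-ps, a transcribed pseudogene, had 4, 5 and 3 counts in Adar-null cells with IFNb, 0, 4 and 2 in control cells with IFNb, 1 in all in Adar-null cells with vehicle and 0 in control cells with vehicle. Slfn14-ps had at most 4 counts over a group. Slfnl1, which lies on chromosome 4, had 1 and 2 counts in control cells with vehicle and with IFNb, and 6 and 5 in Adar-null cells. None of the 3 passed the low-count filter.

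**Figure D5:**
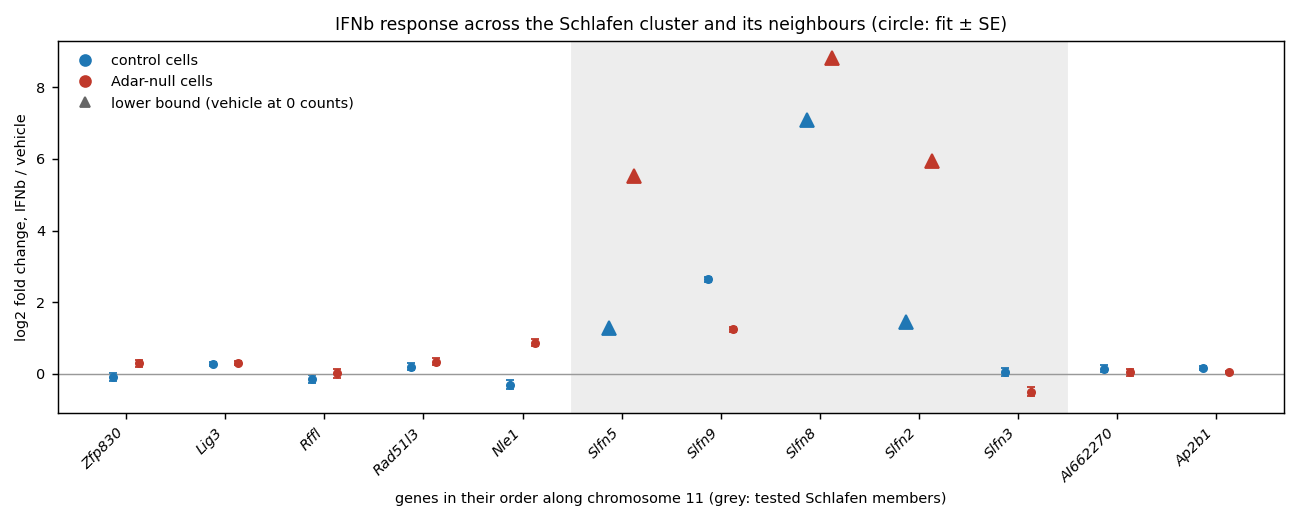
Log2 fold change of IFNb against vehicle for Schlafen members and 7 of the 10 flanking genes in their order along chromosome 11, in control (blue) and Adar-null cells (red). Circles are fitted values with their standard error, and the grey area holds the Schlafen members. Triangles are lower bounds against vehicle groups at 0 counts, taken without counting error of the treated group. Of the changes shown outside the grey area, that of Nle1 in Adar-null cells, at 0.88, is the largest.

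The genes that flank the cluster changed by less than Slfn8 and Slfn9 in control cells. The 5 tested genes on either side included Zfp830, Lig3, Rffl, Rad51l3 and Nle1 before Slfn5, and AI662270 and Ap2b1 after Slfn3. In control cells IFNb raised 2 of these 10 (Lig3 and Ap2b1) and lowered 1 (Nle1), with a median log2 fold change of 0.14, where 26.5% of all tested genes rose and 26.5% fell. In Adar-null cells it raised 5 and lowered 0, with a median of 0.17, where 36.6% of all tested genes rose and 35.7% fell. Nle1, a ribosome biogenesis gene, rose by 0.88 ± 0.10 on the log2 scale in Adar-null cells (edgeR adjusted p = 1.54e-13). Lig3, a DNA ligase gene, rose by 0.28 ± 0.05 without and by 0.31 ± 0.05 with the Adar deletion. Between genotypes under IFNb, 4 of the 10 were higher in Adar-null cells, among them Nle1 at 1.14 ± 0.11, and 0 lower, where 36.4% of all tested genes were higher and 36.2% lower. Under vehicle 0 of the 10 were called by edgeR.

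Genes of type I interferon signalling, the pathway that acts upstream of interferon-induced genes, are given for comparison. Of 15 tested genes of that list, 10 rose and 0 fell in control cells, with a median log2 fold change of 0.65 beside -0.0049 over all tested genes, of which 26.5% rose and 26.5% fell. In Adar-null cells 10 rose and 3 fell (Ifnar1, Socs3 and Ptpn6), with a median of 1.61 beside 0.012 over all tested genes, of which 36.6% rose and 35.7% fell. Between genotypes under IFNb, 8 were higher and 5 lower in Adar-null cells (lower: Ifnar1, Jak1, Irf7, Socs3 and Ptpn6), with a median of 0.27 beside 0.016 over all tested genes, of which 36.4% were higher and 36.2% lower. The share of the list that was lower was thus near that of all genes. Usp18, an inhibitor of the receptor complex, stood at 338 ± 4.06 CPM in control and 799 ± 39.1 CPM in Adar-null cells with IFNb. Stat2, a transcription factor of the pathway, was higher in Adar-null cells by 1.45 ± 0.05 on the log2 scale (edgeR adjusted p = 7.06e-53), and Jak1, the receptor kinase, lower, at -0.11 ± 0.05 (0.0349).

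Among 15 interferon-induced factors that act on RNA or translation, the functions to which Schlafen proteins are also linked, all 15 rose with IFNb in both genotypes. These genes were listed as interferon-induced, with earlier results of these data known, so that count is not read as a result. Their median log2 fold change was 8.04 in control cells. In Adar-null cells it was 10.55, or 9.57 with genes at 0 counts under vehicle set to their bounds. Between genotypes under IFNb, 12 were higher in Adar-null cells and 2 lower, Eif2ak2 at -0.23 ± 0.05 and Oas2 at -0.26 ± 0.06. The median of this list was 0.61, and the shares over all tested genes were those given for the signalling list. Ifit2, an RNA-binding antiviral protein, was higher by 1.93 ± 0.04 (edgeR adjusted p = 1.26e-74), Ifit3 by 1.17 ± 0.04 (1.16e-48), Ifit1 by 1.11 ± 0.04 (1.93e-51) and Zc3hav1, the zinc-finger antiviral protein, by 0.61 ± 0.04 (6.71e-25). Slfn9, at -1.43, was further below 0 than either of the 2 lower genes of this list. Under vehicle, 2 of the 15 were lower in Adar-null cells, among them Adar at -0.28 ± 0.06.

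The tested genes whose profiles over the 12 libraries were closest to each member were found from the root mean square difference of log2 CPM after centring. A prior count of 2 was added before the log, which narrows differences near 0 counts. Closest to Slfn9 were Synpo (0.18), Psme1 (0.25) and Ehd4 (0.33). Synpo, an actin-associated protein, stood at 77.8 and 375 CPM in control cells with vehicle and with IFNb, and at 74.8 and 170 CPM in Adar-null cells. Closest to Slfn8 were Mndal (0.17), Gbp9 (0.19) and Gbp6 (0.19), of the interferon-induced PYHIN and guanylate-binding protein families. Mndal had no counts with vehicle, 21.4 CPM with IFNb in control and 55.5 CPM in Adar-null cells. Closest to Slfn2 were Pyhin1 (0.34), Cxcl11 (0.43) and Cdsn (0.44), and closest to Slfn5 were Casp4 (0.30), Gm4841 (0.45) and Hist1h2ba (0.53). Unlike Slfn2, Cdsn was detected without interferon. It stood at 1.95 and 2.26 CPM in control cells with vehicle and with IFNb, and at 1.18 and 54.1 CPM in Adar-null cells. Closest to Slfn3 were Tmem123 (0.078), Ankrd32 (0.082) and Mr1 (0.087). Likeness over 4 groups is a description and was not tested.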

How the data were processed

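Total RNA of 12 B16 libraries was depleted of ribosomal RNA and sequenced as paired 37-base reads from directional libraries, per the labels' protocols. Per the submitters' processing notes, the build was mm10 and the tools were HTSeq 0.6.1p1, Bowtie2 2.2.4, Trimmomatic 0.33, bcl2fastq 2.19.1 and DESeq2. The counting's strand setting and annotation were not given in the sources used here. Raw counts per gene symbol, not normalised, were deposited by the authors.

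Low rows were removed by filterByExpr (by group), and the rest were scaled by TMM and tested in a single fit over 12 libraries with 1 term per group (edgeR 4.0.16, glmQLFit robust and glmQLFTest, R 4.3.3). Adjustment was by Benjamini-Hochberg over 11561 genes, and 5 of the 7 members were tested. The common biological coefficient of variation was 0.0397. Errors of log2 fold changes are Wald standard errors, not below counting error. Where a group had 0 counts, bounds used 3 counts over the group. The other group entered these bounds at its observed level, without counting error. Counting intervals are exact at 95%. Alternatives were DESeq2 1.42.0, limma 3.58.1 (voom), other scalings, no filter, fits of the compared groups alone, a replicate block and each library left out. Sequence work used Biopython 1.88.

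The members, gene lists, neighbours and rules were chosen with earlier results of these data known. Genes named are all rows starting with Slfn, the 3 genes closest in profile to each tested member, up to 4 examples per list by mean CPM, and 5 tested neighbours on each side; list members named where a count was 5 or fewer were chosen after their values were seen. Some genes that the rule names are not reported here. Promoters came from RefSeq and matched all 7 members. The interferon-gamma arm was not analysed here.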

Additional observations from a re-analysis of the deposited data

Results flagged for a closer look

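The response to IFNb differed between the genotypes, by the interaction term of the edgeR fit, for 2 members of the family. For Slfn9 the response of Adar-null minus control cells was -1.40 on the log2 scale, and for Slfn3 it was -0.55. The responses behind these differences were 1.24 and 2.64 for Slfn9 and -0.50 and 0.06 for Slfn3, in Adar-null and control cells. Over the alternatives that kept Slfn8 and Slfn9 as separate genes, both values stayed below 0 and were called.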

How the results depend on the processing

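Counts of members called stayed within 1.5 times their values in 98 recomputed counts. The 1 exception was the interaction, where limma-voom called 4 members (Slfn2 and Slfn5 higher, Slfn3 and Slfn9 lower) in place of 2. With a library left out, 3 to 4 members were called in control cells, 5 in Adar-null cells and 2 for the interaction. Between genotypes, 5 were then called under IFNb and 0 under vehicle, where only Slfn3 and Slfn9 had counts. Of single-gene values, 432 kept direction and call. Slfn3 in control cells changed sign without being called, at -0.0179 with library size alone, and ran from -0.0411 to 0.12 over the libraries left out, below 0 without control vehicle replicate 3 and, at -0.0055, without control IFNb replicate 2. Slfn9 under vehicle was 0.0452 without control vehicle replicate 1, on a range from -0.0784. With Slfn8 and Slfn9 added up, chosen after seeing the data, the Slfn8 value turned to -0.62 between genotypes under IFNb and to -0.60 for the interaction, since the larger Slfn9 enters the sum. Slfn5 in control cells lost its call with DESeq2, limma-voom and without control IFNb replicate 3. In the interaction, Slfn2 gained a call with DESeq2 (adjusted p = 0.0249) and limma-voom (5.39e-05), and Slfn5 with limma-voom (9.01e-05). Both vehicle groups of these 2 genes were at 0, so these calls give no estimate of a difference of fold responses. Why the tools differed was not tested. No scaling moved the median of all genes by over 0.1 on the log2 scale; the furthest shift was -0.0905.

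With the replicate number as a block, the counts were again 4, 5, 5, 0 and 2, and Slfn9 between genotypes under IFNb was -1.43. Deviations of same-numbered libraries correlated at -0.113 to 0.146 over 18 pairs, those of other libraries at -0.157 to 0.148 over 36, and 6 of 12 libraries correlated best with their own number, so the numbers were not taken as pairing. Depth limits Slfn1 and Slfn4, with 1 and 8 counts in the 12 libraries, and Slfn2 and Slfn5 in control cells.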
